A study of Homo sapiens with 6 samples.

Results

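The 10 genes described here encode the core of the NF-kB system in a human cell line: the 5 subunits of the transcription factor (NFKB1, NFKB2, REL, RELA and RELB), 3 IkB inhibitors (NFKBIA, NFKBIB and NFKBIE) and 2 feedback regulators (TNFAIP3 and BIRC3). They were chosen by symbol, were matched by Ensembl identifier and are 10 of 78651 genes in the tables. All 10 passed the filter on low counts, as did 17625 genes in all. RNA with poly(A) tails was sequenced from THP-1, a monocytic leukaemia line, in 2 groups of 3 biological replicates. The cells of one group were stably transduced with an empty vector (EV) and those of the other with a construct for overexpression of PTX4 (PTX4-OE), which encodes pentraxin 4, a relative of C-reactive protein. Both groups grew in RPMI medium with fetal bovine serum, and the labels name no stimulus of NF-kB. The promoter of the construct, and whether each line was 1 clone or a pool, are not given in the sources used here.

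NF-kB proteins bind DNA as dimers of subunits that share a Rel homology domain. In resting cells IkB proteins hold the dimers in the cytoplasm. Signals from TNF, Toll-like and interleukin receptors activate IkB kinase, which marks IkB for destruction and frees the dimers. A second route, through the kinase NIK, processes the NFKB2 precursor and frees RELB dimers. Several genes of the system are themselves NF-kB targets: newly made NFKBIA and TNFAIP3 end the response, and in monocytes this loop shapes the release of cytokines.

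The libraries held 29670641 to 37718207 expected counts. PTX4 (ENSG00000251692.8, chromosome 16) had 0, 3 and 4 counts in EV replicates 1, 2 and 3, and 24633, 14398 and 15782 in PTX4-OE replicates 1, 2 and 3. Of 7 monocytic marker genes, 6 were above 1 TPM (a level scaled for gene length and library size) in every library, and CD14 ran from 0.84 to 1.83 TPM. The T cell markers CD3E, CD3D and CD2 were listed at 0 in all 6 libraries. NCAM1 and NKG7, fixed as NK cell markers, stood at 39.0 to 51.4 and 18.9 to 27.1 TPM, while KLRD1 was listed at 0. PTX4-OE replicate 1 stood apart in its mitochondrial share, 2.79% of counts against 4.75% to 5.91% in the other libraries. Its part in the results was not tested, and values without this library are given beside the results it moves most. In RNA from a whole culture, fewer cells that express a gene and less RNA per cell cannot be told apart.

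As background, the loop described above runs through NF-kB sites in the promoters of several of these genes. The 250 bases before each start in the RefSeq promoter table (GRCh38.p14) were searched on both strands for the NF-kB consensus motif, a 10-base pattern that opens with a run of G, closes with a run of C and has a purine and pyrimidines between. The table held 13 start sites for 8 of the 10 genes, and RELB and NFKBIE were not searched. The motif was present before 8 of the 13 starts, in 7 of the 8 genes, all but RELA. Over all 35116 promoters of the same length, 9.96% held it, as did 11.8% of genes in at least 1 of their promoters. The narrower motif GGGANTTTCC, every match of which is also a match of the consensus, was present before 6 of the 13 starts, beside 0.527% of all promoters, and in 6 of the 8 genes, beside 0.645% of all genes. The 8 genes have up to 3 starts each, and a gene with more starts has more chances of a match. A match of letters is a description, not a binding site shown by these data.

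The upstream stretches below are shown because their genes are the inhibitor NFKBIA, both feedback regulators and the p50 precursor, NFKB1. They run 5′ to 3′ in the direction of the gene, up to its first annotated exon, with consensus matches on either strand in capitals. NFKBIA and TNFAIP3 carry their matches 71 bases and 57 and 45 bases before the start, and both genes have a match of the narrower motif. The matches of BIRC3 lie 189 and 125 bases before the start, and neither is a match of the narrower motif.
NFKBIA (chr14:35404750-35404999, minus strand): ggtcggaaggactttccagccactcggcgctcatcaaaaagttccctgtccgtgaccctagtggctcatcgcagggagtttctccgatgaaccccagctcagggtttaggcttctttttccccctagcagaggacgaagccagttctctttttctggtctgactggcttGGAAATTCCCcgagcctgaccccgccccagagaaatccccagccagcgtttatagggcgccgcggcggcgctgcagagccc
TNFAIP3 (chr6:137867009-137867213, plus strand): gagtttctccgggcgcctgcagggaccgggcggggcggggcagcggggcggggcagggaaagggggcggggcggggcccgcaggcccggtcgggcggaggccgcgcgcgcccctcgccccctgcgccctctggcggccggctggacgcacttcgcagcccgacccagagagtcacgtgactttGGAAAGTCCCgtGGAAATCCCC
BIRC3 (chr11:102317234-102317483, plus strand): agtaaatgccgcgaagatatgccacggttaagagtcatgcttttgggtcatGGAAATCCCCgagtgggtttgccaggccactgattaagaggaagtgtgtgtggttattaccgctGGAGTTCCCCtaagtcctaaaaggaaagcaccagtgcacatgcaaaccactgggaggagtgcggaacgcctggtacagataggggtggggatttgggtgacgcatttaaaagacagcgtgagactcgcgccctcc
NFKB1 (chr4:102501109-102501329, plus strand): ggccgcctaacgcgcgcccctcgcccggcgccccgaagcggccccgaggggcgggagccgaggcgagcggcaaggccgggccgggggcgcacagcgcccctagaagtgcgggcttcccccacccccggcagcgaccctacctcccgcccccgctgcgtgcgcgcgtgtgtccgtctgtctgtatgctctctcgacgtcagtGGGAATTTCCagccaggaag

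The other subunit and inhibitor genes with a match are shown as windows of at most 30 bases around it. In REL, NFKBIB and the first NFKB2 window the motif matched on both strands at the same or the next base, so the capitals span both matches. The second NFKB2 window belongs to a start downstream of the first. NFKB2 has further matches 68 and 166 bases before these starts, which are not shown. The matches shown for REL and NFKB2 lie within annotated exons.
REL (chr2:60881518-60881546, plus strand): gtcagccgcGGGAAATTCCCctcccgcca
NFKB2 (chr10:102394462-102394490, plus strand): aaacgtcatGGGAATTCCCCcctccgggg
NFKB2 (chr10:102395674-102395703, plus strand): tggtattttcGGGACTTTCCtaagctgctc
NFKBIB (chr19:38899932-38899960, plus strand): ggcgtggtgGGGAATTTCCCgcagggcgg

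The 10 genes differed widely in transcript level, and their order was much the same in both groups. On deposited TPM, which allows genes of different length to be compared, NFKBIA was highest, at 30.9 ± 1.23 in EV and 30.4 ± 0.666 in PTX4-OE (SD, n = 3 each). RELA, the transactivating p65 subunit, followed at 23.5 ± 1.69 and 24.9 ± 2.58 TPM. NFKB2, NFKBIB and NFKBIE came next, with means over all libraries of 18.1, 15.4 and 14.9 TPM, and their ranges overlapped in each group. TNFAIP3 stood at 8.74, NFKB1 at 7.37 and RELB at 5.97 TPM. TNFAIP3 and NFKB1 did not overlap in EV but did in PTX4-OE, whereas NFKB1 and RELB overlapped in EV and not in PTX4-OE. REL was at 2.80 and BIRC3 at 0.242 TPM, below every other gene in all 6 libraries.

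**Figure D1:**
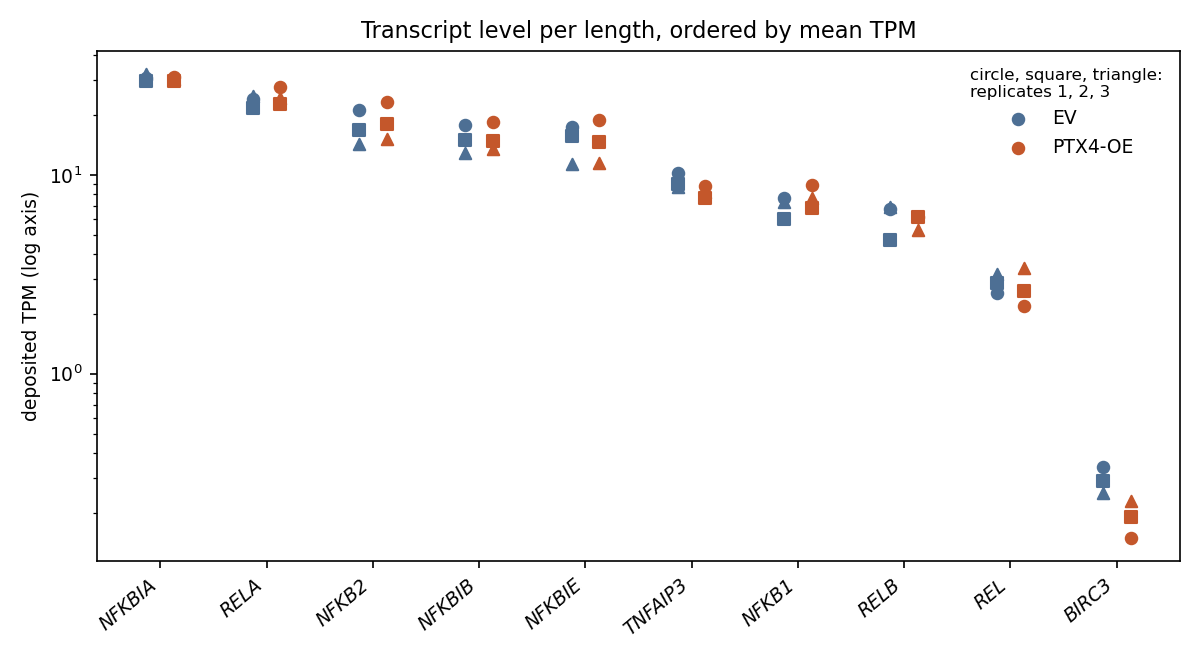
Deposited TPM on a log axis for the 10 genes, ordered by their mean, with EV in blue and PTX4-OE in orange and a marker shape for each replicate number. NFKBIA lies between 29.7 and 32.1 TPM in all 6 libraries, and BIRC3 is the one gene whose EV and PTX4-OE values do not overlap.

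Summed over genes, IkB and subunit transcripts were present in nearly equal amounts. The 5 subunits together made 51.8 to 68.1 TPM and the 3 IkB genes 55.3 to 68.3 TPM. The IkB to subunit ratio was 1.07 ± 0.0828 in EV and 1.02 ± 0.0348 in PTX4-OE (SD, n = 3 each), and the groups overlapped. RELA contributed 38.7% to 44.02% of subunit TPM and NFKB2 25.2% to 34.1%, while REL gave 3.22% to 6.10%. NFKBIA made 45.5% to 57.0% of IkB TPM. These are RNA levels and give no measure of protein.

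No subunit gene passed the test between PTX4-OE and EV. The test was edgeR's quasi-likelihood test on expected counts over all 17625 genes, with Benjamini-Hochberg adjustment and calls at an adjusted p under 0.05. It called 0 of the 10 genes, against 0.00567% of all genes, which is PTX4 alone. With libraries of the same replicate number compared as pairs (a replicate block) it again called 0 of 10, against 0.267% of all genes (0.0284% higher and 0.238% lower). At an unadjusted p under 0.05 it found 0 of the 10 without the block, where 0.743% of all genes passed (0.505% lower), and 1 with it, TNFAIP3, on the lower side, where 8.79% passed (4.43% lower). DESeq2 also called 0 of 10, and 3 genes in the whole table. Limma-voom called 0 genes in the whole table, PTX4 included (limma-voom adjusted p = 0.0566), so its 0 of 10 says nothing about these genes. Normalised read counts scaled to library size (CPM), used below, compare 1 gene between libraries and not genes with each other.

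RELA (ENSG00000173039.20, chromosome 11, 65653599 to 65663090, minus strand) was the most even of the subunits. Its CPM was 42.6, 39.0 and 42.1 in EV replicates 1, 2 and 3 and 48.6, 39.8 and 40.5 in PTX4-OE. PTX4-OE replicate 1 was the highest library, and the other 5 lay close together. The log2 fold change was 0.06 (SE 0.11, 95% interval -0.21 to 0.33). Without PTX4-OE replicate 1 it was -0.029.

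NFKB1 (ENSG00000109320.14, chromosome 4, 102501330 to 102617302), which encodes the p105 precursor of p50, stood at 21.98, 17.2 and 19.9 CPM in EV and 25.0, 19.0 and 19.8 in PTX4-OE. The groups overlapped, and pairs 1 and 2 were higher in PTX4-OE while pair 3 was level. Its log2 fold change was 0.11 (SE 0.15, interval -0.24 to 0.47), and -0.011 without PTX4-OE replicate 1.

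NFKB2 (ENSG00000077150.21, chromosome 10, 102394110 to 102402524), the p100 precursor of p52, stood at 46.9, 37.5 and 29.8 CPM in EV and 50.7, 39.0 and 31.0 in PTX4-OE. In both groups replicate 1 was highest and replicate 3 lowest, and this gap was many times that between the groups. Within each pair PTX4-OE was higher, by 0.11, 0.058 and 0.060 on the log2 scale. The log2 fold change was 0.08, with an SE of 0.23 without the block and 0.055 with it. With the block its interval was -0.040 to 0.20 (adjusted p = 0.753, edgeR). Without PTX4-OE replicate 1 or EV replicate 3, in the fit with no block, it was -0.11 or -0.068.

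RELB (ENSG00000104856.15, chromosome 19, 45001461 to 45038192), the partner of p52, had 10.4, 7.29 and 10.1 CPM in EV and 9.35, 9.15 and 7.43 in PTX4-OE. Its pairs went in both directions, with differences of -0.15, 0.33 and -0.45. REL (ENSG00000162924.16, chromosome 2, 60881491 to 60931612), the lymphoid and myeloid subunit c-Rel, had 20.5, 24.4 and 26.1 CPM in EV and 18.6, 22.1 and 26.8 in PTX4-OE. For REL replicate 3 was the highest and replicate 1 the lowest library of each group, the reverse of NFKB2. The log2 fold changes were -0.10 (SE 0.18) for RELB and -0.07 (SE 0.16) for REL, and that of REL was 0.055 without PTX4-OE replicate 1 and 0.0046 without EV replicate 3. All 6 REL counts are fractions, and the lncRNA gene ENSG00000267520 lies over REL on the same strand with 499.2 to 711.3 counts, so the share of reads that is REL is uncertain. RELA counts are fractions too.

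Like the subunit genes, the 3 IkB genes did not pass the test between the groups. NFKBIA (ENSG00000100906.12, chromosome 14, 35401079 to 35404749, minus strand) encodes IkB-alpha, an inhibitor that NF-kB itself induces. It stood at 31.7, 30.6 and 31.7 CPM in EV and 31.0, 30.04 and 28.8 in PTX4-OE, the smallest spread of the 10 genes. PTX4-OE was the lower library of each pair, by a small margin, and the groups overlapped. The log2 fold change was -0.064 (SE 0.089), and its interval of -0.27 to 0.15 spans 0.827-fold to 1.11-fold. With the block the interval was -0.19 to 0.061.

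NFKBIB (ENSG00000104825.17, chromosome 19, 38899700 to 38908893) encodes IkB-beta. Its CPM was 15.2, 12.3 and 10.6 in EV and 15.7, 12.7 and 11.3 in PTX4-OE, higher in PTX4-OE in each pair by 0.045 to 0.090 on the log2 scale. Its log2 fold change was 0.060 (SE 0.19, or 0.080 with the block). It was -0.071 without PTX4-OE replicate 1 and -0.054 without EV replicate 3, with no block. NFKBIB overlaps SIRT2 on the opposite strand, which had 1045 to 1570 counts, and without strand their shared reads cannot be told apart.

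NFKBIE (ENSG00000146232.17, chromosome 6, 44258166 to 44265788, minus strand) encodes IkB-epsilon. It had 28.9, 26.8 and 18.4 CPM in EV and 31.5, 24.6 and 18.1 in PTX4-OE. The highest library exceeded the lowest by 1.57-fold in EV and 1.74-fold in PTX4-OE, while the group means were 24.7 CPM in both. Its log2 fold change was -0.0012 (SE 0.24, interval -0.58 to 0.57), and -0.0074 (SE 0.067, interval -0.15 to 0.13) with the block. Single libraries moved it in both directions in the fit with no block. NFKBIE was at -0.20 without PTX4-OE replicate 1 and -0.17 without EV replicate 3. It was at 0.17 without PTX4-OE replicate 3 and 0.12 without EV replicate 1.

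The 2 feedback regulators had the lowest log2 fold changes of the 10 genes, and neither passed the test. TNFAIP3 (ENSG00000118503.18, chromosome 6, 137867214 to 137883314) encodes A20, a ubiquitin-editing enzyme that ends signals from TNF and Toll-like receptors. Its CPM was 34.1, 30.7 and 27.7 in EV and 28.9, 25.1 and 25.3 in PTX4-OE. The groups overlapped, because PTX4-OE replicate 1 exceeded EV replicate 3, but PTX4-OE was lower in each pair, by 0.24, 0.29 and 0.13 on the log2 scale. The log2 fold change was -0.22 (SE 0.12, edgeR adjusted p = 1.00) without the block and -0.22 (SE 0.061, interval -0.35 to -0.089, unadjusted p = 0.00273, adjusted p = 0.221) with it. Without the pair of replicate 3 it passed with the block, at -0.28 with an edgeR adjusted p of 0.0497. That setting called 208 of 17391 genes, 167 of them lower, so a call there is less particular than in the fit with all pairs. Over all 20 alternatives the log2 fold change of TNFAIP3 ran from -0.29 to -0.15. The mitochondrial share was also lower in PTX4-OE in each pair, and its part in this difference was not tested.

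BIRC3 (ENSG00000023445.17, chromosome 11, 102317484 to 102339403) encodes cIAP2, a ubiquitin ligase of the TNF receptor complex that restrains NIK. It was near the detection limit, with 39, 32 and 34 expected counts in EV and 18, 23 and 32 in PTX4-OE. In CPM these were 1.23, 1.09 and 1.00 against 0.501, 0.738 and 0.819, so every PTX4-OE library lay below every EV library. Over all genes tested, 2.05% separated in that direction and 2.08% in the other, in which 0 of the 10 genes did. The log2 fold change was -0.69 (SE 0.31, edgeR adjusted p = 1.00), and -0.70 (SE 0.33, adjusted p = 0.572) with the block. PTX4-OE replicate 1 was the lowest library, and without it the value was -0.50. With the block, leaving out the pair of replicate 1 gave -0.42, and leaving out that of replicate 3 gave -0.93. At so low a level the scale matters, and BIRC3 was at -0.44 on log2(TPM + 0.1) and -0.12 on log2(TPM + 1).

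**Figure D2:**
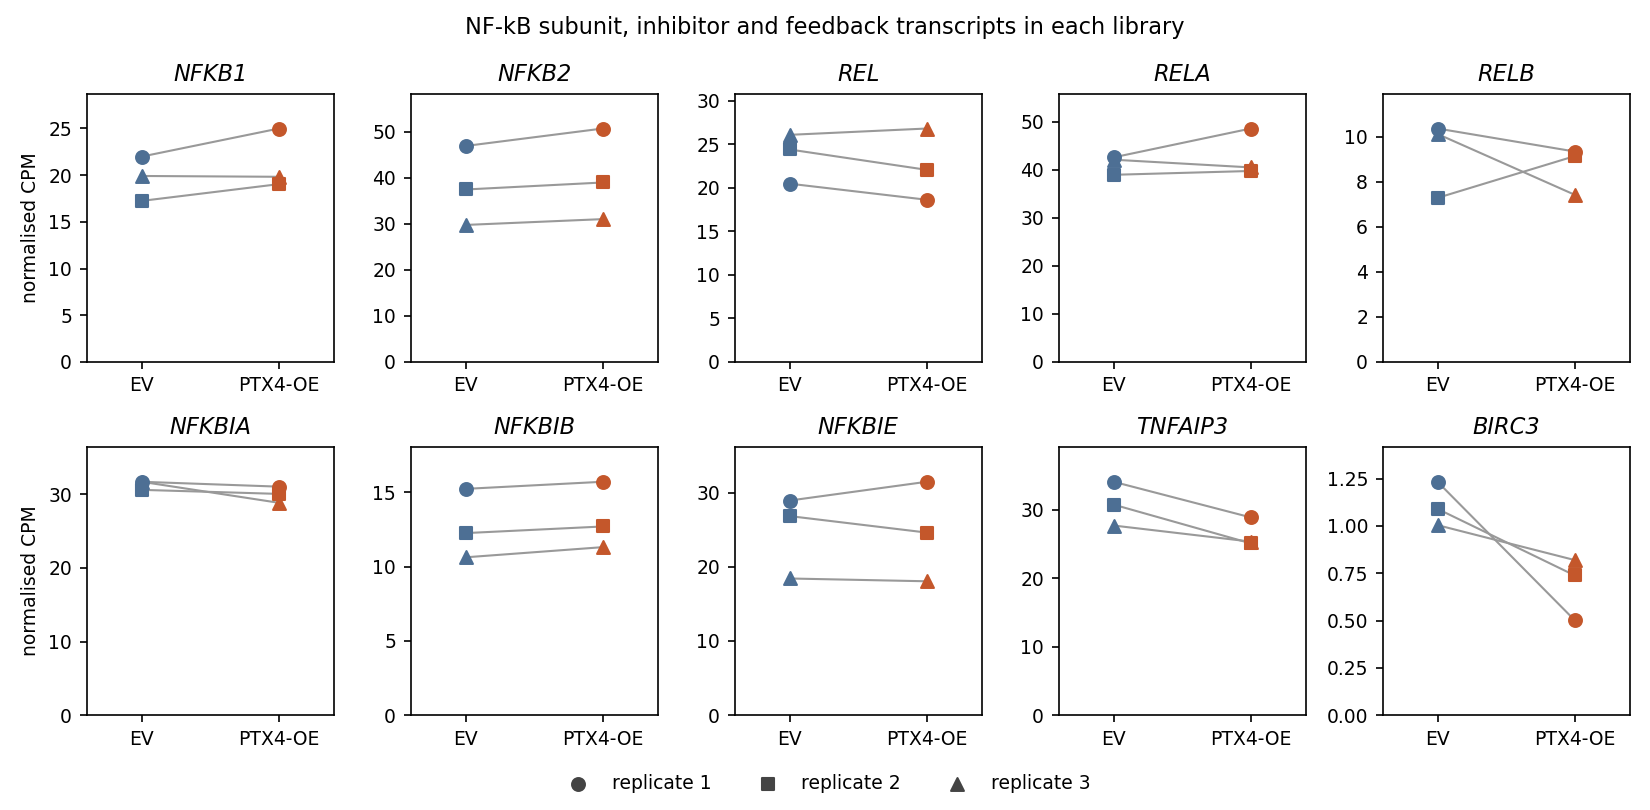
Normalised CPM of each gene in EV (blue) and PTX4-OE (orange), on axes that start at 0, with lines joining libraries of the same replicate number. NFKB1, NFKB2, REL, RELA, NFKBIB and NFKBIE each keep their order of replicates in both groups. TNFAIP3 is lower in PTX4-OE along all 3 lines, as are NFKBIA and BIRC3. BIRC3, at 0.501 to 1.23 CPM, is the only panel in which the groups are apart.

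Counted together, 6 of the 10 log2 fold changes were negative and 4 positive, beside 47.0% negative over all genes tested. The median was -0.033 without the block and -0.036 with it, beside 0.0077 and 0.0053 over all genes. PTX4-OE was lower in all 3 pairs for 3 genes (NFKBIA, TNFAIP3 and BIRC3), where 14.2% of all genes were, and higher in all 3 for 2 (NFKB2 and NFKBIB), where 16.4% were. For 8 of the 10, both ends of the 95% interval were changes smaller than 1.5-fold. With the block this held for 9, and over all genes for 52.6% and 71.3%. NFKB2 (up to 1.53-fold without the block) and BIRC3 were the exceptions, the second in both fits. The sign of the median turned on single libraries. It was -0.095 with 9 of 10 values negative without PTX4-OE replicate 1, and 0.041 or 0.026 with 5 negative without PTX4-OE replicate 3 or EV replicate 1.

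**Figure D3:**
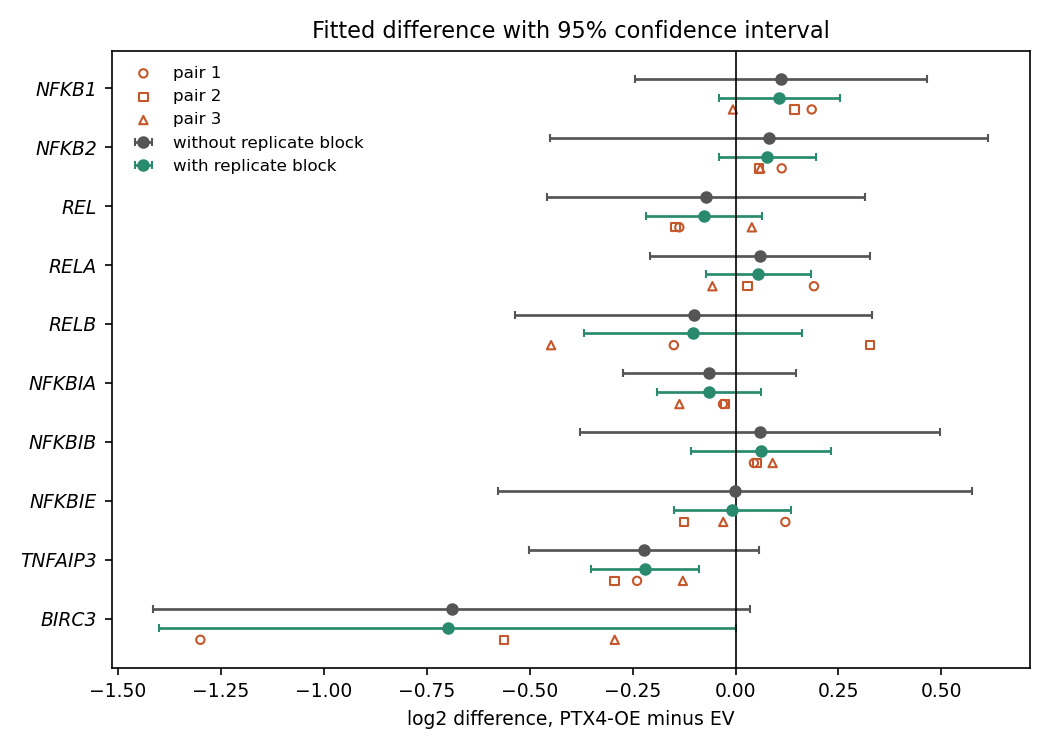
Log2 difference between PTX4-OE and EV for each gene with its 95% confidence interval, from the fit without the replicate block (grey) and with it (green), and the difference within each pair as open symbols. With the block the interval of TNFAIP3, -0.35 to -0.089, is the one that does not reach 0, and that of BIRC3 reaches from -1.40 to 0.0016.

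More of these genes passed the test for replicate number than the test for the construct, as was so over all genes. In the fit with pairs, the term for replicate number passed (edgeR, adjusted p under 0.05) for 6 of the 10 genes, where it passed for 51.6% of all genes, so the share is near that of any gene. The genes were NFKB1 (adjusted p = 0.00465), NFKB2 (2.555e-06), REL (0.00102), NFKBIB (0.00154), NFKBIE (8.463e-06) and TNFAIP3 (0.0303). NFKBIA (0.775), RELB (0.342), RELA (0.0604) and BIRC3 (0.936) did not pass. For TNFAIP3, BIRC3 and NFKBIA the unadjusted p of the same edgeR fit was smaller for the construct. It was 0.00273 against 0.0143 for TNFAIP3, 0.0505 against 0.918 for BIRC3 and 0.290 against 0.723 for NFKBIA. What libraries of the same replicate number share is not stated in the labels.

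The mean standardised log2 CPM of the 10 genes was 0.741, -0.17 and -0.073 in EV replicates 1, 2 and 3 and 0.488, -0.33 and -0.66 in PTX4-OE. Among 9885 other genes with a mean of at least 10 CPM, the 5 most like it over the 6 libraries were ZPR1, SLC1A3, ZDHHC18, BRAP and EMILIN2. Their Pearson r ran from 0.985 to 0.994 and their Spearman rho from 0.943 to 1.0. They were picked as the highest of many over 6 points that share libraries, so these values are a description only. The log2 fold changes of the 5 genes ran from -0.15 (SLC1A3) to -0.044 (BRAP).

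Around this core, the receptors, adaptors and kinases of the pathway did not pass the test. Of 80 further pathway genes in 4 lists, 71 were tested, and without the block edgeR called 0 of them, as did DESeq2. Limma-voom did too, but it called 0 genes in the whole table. At an unadjusted edgeR p under 0.05 there was 1, the chemokine CXCL2 (mean 0.801 CPM in EV and 0.482 in PTX4-OE), where 0.743% of all genes passed. With the block 1 was called, TNF, against 0.267% of all genes. At an unadjusted p under 0.05 with the block, 7 were lower and 2 higher, where 8.79% of all genes passed (4.43% lower). All 22 receptor and adaptor genes were tested, with 0 called in either fit. They had 11 negative values, beside 47.0% of all genes, and a median of -0.014. TLR2, the receptor for bacterial lipoproteins, went from 86.7 ± 9.51 to 77.4 ± 12.0 CPM and TNFRSF1B, a TNF receptor, from 55.7 ± 8.16 to 49.4 ± 7.09 (SD, n = 3 each). With the block their log2 fold changes were -0.17 (SE 0.050) and -0.17 (SE 0.051), with edgeR adjusted p = 0.255 and 0.26, and both were lower in each pair. Single libraries moved these differences in the fit with no block. TLR2 went from -0.16 to -0.042 without PTX4-OE replicate 1, -0.091 without EV replicate 3, -0.25 without EV replicate 1 and -0.28 without PTX4-OE replicate 3. TNFRSF1B went from -0.17 to -0.057 without EV replicate 1 and -0.29 without PTX4-OE replicate 1.

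The 14 genes of the IkB kinase complex, its activating kinases and the linear ubiquitin ligase LUBAC had 0 calls in either fit. Their median was 0.017, beside 0.0077 over all genes. Of all genes 0.00567% were called without the block and 0.267% with it, so 0 calls in a list of this size is near the share of any gene. IKBKG, the scaffold subunit NEMO, was at 0.11 (SE 0.063 with the block, adjusted p = 0.665, edgeR). Its counts are partly fractions, so they are uncertain, and without PTX4-OE replicate 1 the value was -0.0047. SHARPIN, a LUBAC subunit, was at -0.08 (SE 0.051, adjusted p = 0.70), and at -0.044 without EV replicate 3 in the fit with no block. Among 15 tested genes of other inhibitors and atypical IkB proteins 0 were called in either fit, again near the share of any gene, with a median of -0.028. OTUD7B, a deubiquitinase, was at 0.16 (SE 0.069, adjusted p = 0.523) and PELI1, a ubiquitin ligase, at -0.20 (SE 0.096, adjusted p = 0.585), both with the block. Without the pair of replicate 2, OTUD7B and PELI1 were at 0.11 and -0.10 with the block, and PELI1 was at -0.31 without that of replicate 3.

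Among the target genes TNF alone passed in the fit with pairs, and 0 did in the fit without them. TNF (ENSG00000232810.5) had 62.4, 51.3 and 79.5 CPM in EV and 50.6, 41.7 and 58.4 in PTX4-OE. The groups overlapped, and each PTX4-OE library was the lower of its pair. With the block it fell by 0.35 on the log2 scale (SE 0.054, edgeR adjusted p = 0.00872), and without it the value was -0.36 (SE 0.19, adjusted p = 1.00). The call was lost on log2(TPM + 1) with the block, at -0.30 with a limma adjusted p of 0.527, a setting that called 1 gene in the whole table. With the block TNF also passed in DESeq2 (adjusted p = 0.00254) and with upper quartile scaling in edgeR (0.0198). Without the pair of replicate 1, 2 or 3 its edgeR adjusted p was 0.00317, 0.0463 or 0.0024. With no block, TNF was at -0.18 without EV replicate 3, -0.50 without EV replicate 2 and -0.49 without PTX4-OE replicate 3, and did not pass. CXCL8, the neutrophil chemokine, had 79, 44 and 34 counts in EV and 47, 19 and 24 in PTX4-OE, with -0.97 (SE 0.27, adjusted p = 0.226) under the block. With the block and no filter on low counts CXCL8 passed as well (-0.97, edgeR adjusted p = 0.034). That setting was chosen after seeing the data and called 296 of 34312 genes. With no block it was at -0.98, at -0.58 without EV replicate 1 and at -1.43 without PTX4-OE replicate 1. Of 28 target genes 20 were tested, and the 8 left out by the filter included IL6, IL1A and CCL2. Of the 20, 14 had a negative value, beside 47.0% of all genes, with a median of -0.082 beside 0.0077 over all genes. In all 3 pairs 7 were lower and 3 higher, where 14.2% and 16.4% of all genes were.

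**Figure D4:**
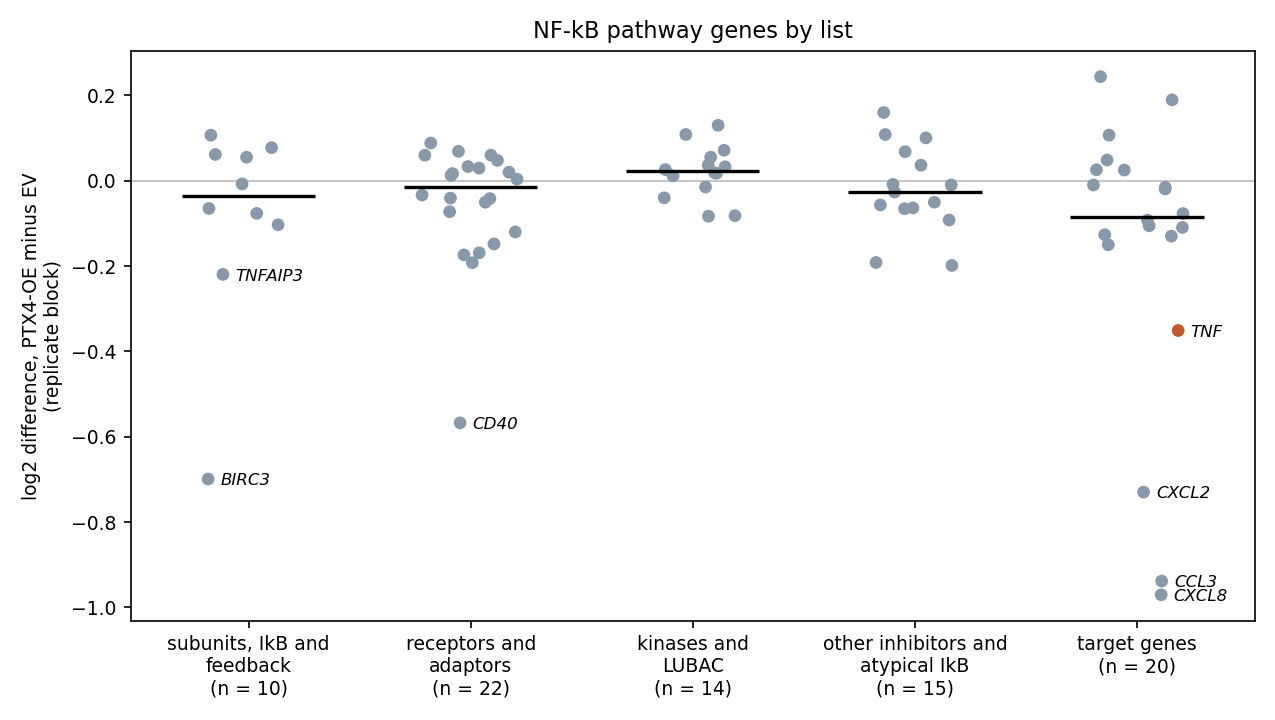
Log2 difference with the replicate block for every tested gene in 5 lists, with a bar at each list's median and the called gene in orange. TNF, at -0.35, is the one called gene, while CXCL8, CCL3, CXCL2, BIRC3 and CD40 lie lower and did not pass. These 5 genes were near the detection limit, with group means of 0.373 to 1.67 CPM, and the pairs of CD40 ran from -2.04 to 0.90.

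The promoter motif was then set against the whole table. Of tested genes outside the 10 with an entry in the promoter table, 1775 held the consensus. Their median on the log2 scale was 0.014, and 43.8% were negative, beside 0.011 and 45.0% of 9830 genes without it. With the block 0.282% of genes with the consensus were called lower, beside 0.244% of those without. The narrower motif GGGANTTTCC was held by 73 genes, with a median of -0.046 and 68.5% negative, beside 0.012 and 44.7% of 11532 genes without it. With the block these medians were -0.042 and 0.0094, and 0 of the 73 genes were called in either fit. Of the genes without the narrower motif, 0.251% were called lower with the block, so 0 of 73 is not apart from that share. The 2 sets were not tested against each other, and genes that share a motif are not independent replicates.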

How the data were processed

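The samples were 6 THP-1 libraries in 2 groups of 3, and the labels put every library in batch 1. FastQC 0.11.5, STAR, featureCounts and the build GRCh38 are listed in the submitters' processing notes. For their settings, strandedness and annotation release, nothing is given in the sources used here. Deposited by the authors were expected counts, without normalization, and TPM, a level scaled for gene length and library size. Of the deposited expected counts 7.94% are not whole numbers. The deposited FPKM table was not used.

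Identifiers were named from a table of Ensembl IDs (61428 named), 35 X and Y copies were summed, and coordinates came from GENCODE release 44 on GRCh38. After rounding, the counts went into edgeR 4.0.16 under R 4.3.3 (filterByExpr, TMM, quasi-likelihood test, adjusted p under 0.05) after a check on simulated data. The SE was the log2 fold change over the root of F. Figures used Python 3.11.15 and matplotlib 3.10.9. Alternatives were a replicate block, DESeq2 1.42.0, limma 3.58.1 on voom values, log2(TPM + 1) or log2(TPM + 0.1), other scaling, no filter, and libraries left out. The labels number replicates alike in both groups. Deviations from the group means of same-numbered libraries correlated at 0.632, 0.130 and 0.699, all over the limit of 0.1, so the numbers were taken to pair them. EV replicate 2 with PTX4-OE replicate 1 also exceeded it, at 0.117, so the limit does not single out the pair of replicate 2. No 2 libraries agreed within sampling noise (smallest chi-square per degree of freedom 6.54). By this measure EV replicate 1 was nearer to EV replicate 2 (12.3) and PTX4-OE replicate 2 (16.8) than to PTX4-OE replicate 1 (19). Every result with the block rests on this pairing. Named genes were the 10 genes, PTX4, and in each of 4 lists the called genes and the 2 with the smallest p with the block, plus the 5 most like the 10 genes. CCL3, CXCL2, CD40 and the untested genes were named, and the test of the replicate number was added, after the values were seen. The 10 genes, the lists and the motifs were chosen with earlier results of these data known.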

Additional observations from a re-analysis of the deposited data

How the results depend on the processing

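Of 20 alternatives, 19 called 0 of the 10 genes, and 1, the replicate block without the pair of replicate 3, called TNFAIP3, so the count ran from 0 to 1. In DESeq2 with the block BIRC3 had no adjusted p, nor did CXCL8, so that setting did not judge them. Genes called over the whole table numbered 1 as reported, 47 with the replicate block, 38 with the block in DESeq2, 3 with DESeq2, 2 without a filter, 2 on log2(TPM + 0.1) and 0 with limma-voom, and with libraries or pairs left out they ran from 1 to 208. With the block they numbered 88 without the pair of replicate 1, 23 without that of replicate 2 and 208 without that of replicate 3. Combined with the block, as settings chosen after seeing the data, no filter gave 296, upper quartile scaling 30 and limma on log2(TPM + 1) 1, which was higher. Pathway genes called were 1 with the block, with the block in DESeq2 and with the block under upper quartile scaling, 2 (TNF and CXCL8) with the block and no filter, 0 with the block on log2(TPM + 1), and 0 to 1 with libraries or pairs left out. The median of the 10 genes was -0.033, ran from -0.095 to 0.041 with libraries or pairs left out (with the block -0.061, 0.0045 and 0.013 without the pair of replicate 1, 2 and 3), and was -0.0042 on log2(TPM + 0.1) and -0.0041 on log2(TPM + 1), the latter with or without the block. NFKBIE changed sign, to 0.012 on log2(TPM + 0.1) and, with or without the block, on log2(TPM + 1), and to 0.0016 without a filter. With libraries or pairs left out the ranges that crossed 0 were -0.20 to 0.17 for NFKBIE (0.052 with the block without pair 2), -0.011 to 0.19 for NFKB1, -0.11 to 0.25 for NFKB2, -0.22 to 0.055 for REL, -0.029 to 0.10 for RELA (-0.013 with the block without pair 1), -0.30 to 0.064 for RELB, -0.071 to 0.20 for NFKBIB and -0.0047 to 0.21 for IKBKG. The cause of these shifts was not tested. NFKBIA, TNFAIP3 and BIRC3 stayed negative under all 20. Depth limits BIRC3 most, at 18 to 39 counts a library.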
